A study of Mus musculus with 8 samples.

Results

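Abundant noncoding RNAs were followed in RNA-seq libraries of total RNA from the primary motor cortex (M1) of adult mice. Their 9 genes were chosen by name among the 38031 genes of the deposited count table, and each was represented by its transcript with the lowest Ensembl number. *Rn7sk*, *Rn7s1*, *Rn7s2*, *Rn7s6*, *Rmrp* and *Rpph1* make short RNAs without a poly(A) tail, which a library of total RNA can hold, and *Malat1*, *Neat1* and *Miat* make long nuclear RNAs. Male Swiss Webster mice were injected into M1 at P21-P25 with lentivirus that carried an mCherry reporter and either *non-silencing shRNA* (4 libraries) or *Fezf2 shRNA* (4 libraries), and tissue was taken at P49-P53. The shRNA was placed under a neuronal promoter, that of rat Synapsin I, while the dissected M1 tissue also held cell types in which this promoter is not active. In such bulk tissue, fewer cells of a type and less RNA per cell cannot be told apart. *Fezf2* encodes a transcription factor of layer 5 projection neurons, and the comparison asked how reducing it in mature M1 changed the transcriptome.

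7SK RNA, made by *Rn7sk*, holds the elongation factor P-TEFb in an inactive particle together with HEXIM and LARP7 proteins. 7SL RNA is the scaffold of the signal recognition particle, which takes ribosomes that make secreted and membrane proteins to the endoplasmic reticulum. Its reads were counted here at *Rn7s1*, *Rn7s2* and *Rn7s6*. The RNA of RNase MRP (*Rmrp*) and that of RNase P (*Rpph1*) are the related catalytic cores of enzymes that process ribosomal RNA precursors and the 5′ ends of tRNAs. *Malat1* RNA sits at nuclear speckles, the long *Neat1* RNA builds paraspeckles, and *Miat*, also called Gomafu, is a nuclear RNA of neurons that binds splicing factors.

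The libraries held 54684016 to 58003814 counts on genes, so that counting error was smaller than the spread between animals for all 9 genes. *Fezf2* had 687.5, 767, 734.7 and 702.2 normalized counts in *non-silencing shRNA* replicates 1 to 4 and 620.6, 582.9, 568.3 and 592.5 in *Fezf2 shRNA* replicates 1 to 4. A normalized count is a count divided by the effective size of its library and multiplied by the mean effective size of the 8. All 4 *Fezf2 shRNA* libraries lay below all *non-silencing shRNA* libraries (log2 fold change -0.29, standard error 0.0781), although the gene did not pass the test over all genes (edgeR quasi-likelihood test, Benjamini-Hochberg adjusted p = 0.0824).

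Several of the 9 genes have near-identical copies, and their sequences decide which counts can be read as separate measurements. All sequences were read as the annotated transcripts of GENCODE M21 (GRCm38), 5′ to 3′. *Rn7s1* and *Rn7s2*, both on chromosome 12, have the same base at all 300 positions. *Rn7s6*, on chromosome 6, carried the first 214 bases of the other genes with 3 differences, and ended in 77 bases that they lack. The counts followed these sequences. *Rn7s1* had 1824118 to 2254898 counts per library, and *Rn7s2* had 0.995 to 0.996 times as many as *Rn7s1* in each of the 8 libraries. *Rn7s6* had 0.696 to 0.73 times the counts of *Rn7s1*. Per base of its interval *Rn7s1* had a mean of 6930.5 counts. *Rn7s6* had 6880 when its counts were divided by the 214 bases alone, and 5059.55 over all its 291 bases. Reads on its last 77 bases were not counted apart. The 3 loci are therefore read here as 1 measurement of 7SL RNA. How a read that matches several places was counted is not given in the sources used here.

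*Rn7sk* (chr9:78175303-78175633, minus strand) is, like the 7SL genes, annotated with a single exon, and its 5′ part is repeated elsewhere in the genome. The 120 bases of each transcript that end at position 300 are shown for *Rn7sk* and for its 2 copies with the most counts, *Gm24447* (chr15:93234363-93234700, plus strand) and *Gm26315* (chr2:7076094-7076414, minus strand). Capitals mark the bases after the end of the run that *Rn7sk* and the copy share, and in *Rn7sk* those after the shorter of the 2 runs.
Rn7sk: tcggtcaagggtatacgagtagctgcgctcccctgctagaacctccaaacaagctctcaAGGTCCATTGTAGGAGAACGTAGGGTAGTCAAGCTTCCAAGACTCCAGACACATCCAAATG
Gm24447: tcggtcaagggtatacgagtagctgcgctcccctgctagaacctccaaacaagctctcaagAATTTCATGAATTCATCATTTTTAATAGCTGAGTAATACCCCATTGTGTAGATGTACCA
Gm26315: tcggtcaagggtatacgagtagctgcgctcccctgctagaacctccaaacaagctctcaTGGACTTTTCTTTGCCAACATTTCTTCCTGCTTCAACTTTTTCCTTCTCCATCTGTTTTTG

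*Gm24447* carried the first 241 bases of *Rn7sk* with 0 differences, and *Gm26315* the first 239 with 3 differences. *Rn7sk* had 544656 to 814665 counts per library. *Gm24447* had 0.383 to 0.448 times the counts of *Rn7sk*, and *Gm26315* had 0.976 to 0.985 times those of *Gm24447*, so that both copies carried nearly equal counts in every library. These copies align to less than 80% of *Rn7sk* and were found with a wider rule, at least 50% of the length at 95% identity or more, chosen after the data were seen. Under the 80% rule *Rn7sk* had 4 copies, of which *Gm23037* had a mean of 66.8 counts in *non-silencing shRNA* and 64.3 in *Fezf2 shRNA* libraries and 3 had no counts, a result that allows up to 3 counts in a library. *Rpph1* had 4 relatives under the same rule, led by *Rprl3* with a mean of 3394 counts in *non-silencing shRNA* and 2969 in *Fezf2 shRNA* libraries. *Rmrp*, *Malat1*, *Neat1* and *Miat* had no copy under either rule.

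The 9 genes together held 12.1% ± 0.422 of the gene counts of the *non-silencing shRNA* libraries (SD, n = 4) and 11.2% ± 0.857 of those of the *Fezf2 shRNA* libraries (SD, n = 4), and in single libraries 10.2% to 12.7%. The 7SL genes made up most of this, with 10.4% ± 0.336 and 9.61% ± 0.781. Because the same reads may stand at more than 1 copy, the share was also taken with *Rn7s1* as the only 7SL gene. This gave 5.57% ± 0.239 and 5.17% ± 0.36 of the same totals, which still held the counts of the other copies. In both forms the groups overlapped (two-sided exact permutation test of the difference of means, p = 0.171 and p = 0.143, the smallest possible p being 0.0286).

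**Figure D1:**
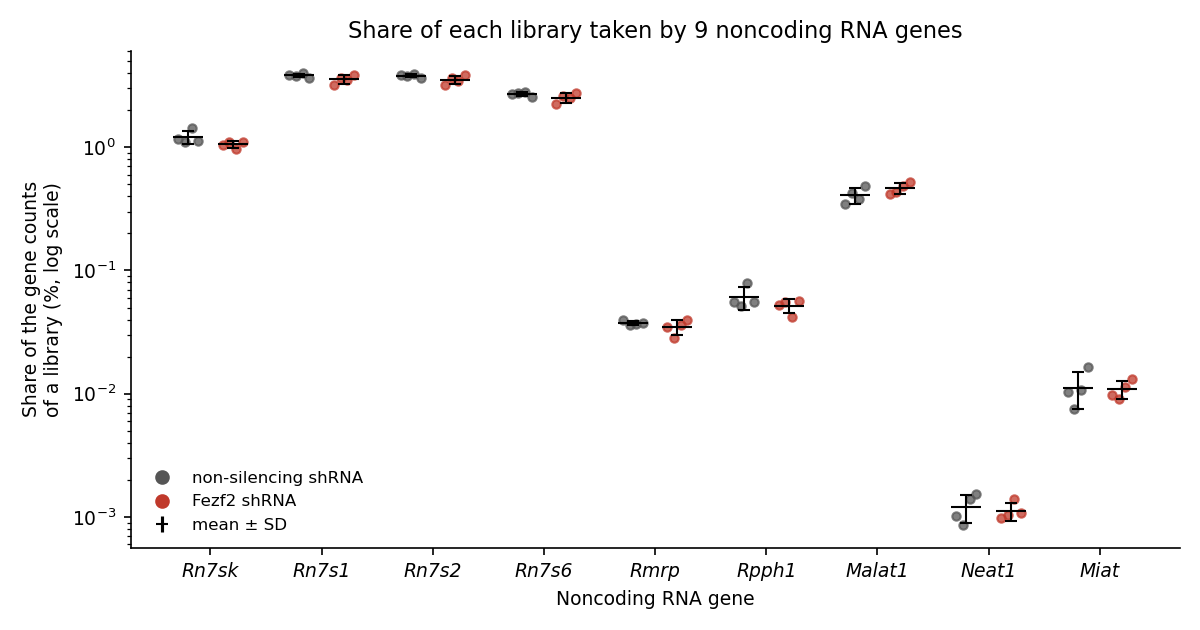
Share of the gene counts of each library taken by each of the 9 noncoding RNA genes, in percent on a log axis, with 1 point per library and the mean and SD of each group of 4. The mean shares in *non-silencing shRNA* libraries run from 0.0012% for *Neat1* to 3.83% for *Rn7s1*, and the groups overlap for every gene except, narrowly, *Rn7sk*.

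Ranked by mean count over all genes, *Rn7s1*, *Rn7s2* and *Rn7s6* were the genes of rank 2, 3 and 4, behind only the mitochondrial ribosomal RNA gene *mt-Rnr2*. *Rn7sk* had rank 7, *Malat1* 12, *Rpph1* 90, *Rmrp* 196, *Miat* 1062 and *Neat1* 8400. Per kb of the counted interval, the mean normalized count in *non-silencing shRNA* libraries was 7134978 for *Rn7s1*, 5201531 for *Rn7s6*, 2045944 for *Rn7sk*, 106026 for *Rpph1*, 77434 for *Rmrp*, 32579 for *Malat1*, 395 for *Miat* and 32.1 for *Neat1*. On this scale per length, *Rpph1* ran from 73389 to 138794 over the 8 libraries and *Rmrp* from 59305 to 84208, so these neighbours in the order overlapped. *Malat1* ran from 28030 to 43025, below every library of *Rmrp*. *Miat* is spliced and its interval of 15719 bases holds 8758 exonic bases in 7 exons, which makes its value per kb a mixture of exon and intron.

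None of the 9 genes passed the test between the groups, where 2.09% of all 9959 genes tested did (208 genes, edgeR quasi-likelihood test, adjusted p at most 0.05 and absolute log2 fold change at least 0.2). All 9 passed the filter on low counts. In this fit none had an unadjusted p under 0.05 either, against 19.6% of all genes, and none had normalized counts that did not overlap between the groups, against 11.8%. The log2 fold change was negative for 8 genes and positive for *Malat1* alone, with a median of -0.08 beside -0.03 over all genes tested. The 8 include *Rn7s1*, *Rn7s2* and *Rn7s6*, which are read here as the same measurement. The 173 other tested genes with an interval under 500 bases had a median of -0.15, and 0 of them were called. With an offset for gene length the log2 fold changes of *Rn7s1*, *Rn7s2*, *Rn7s6*, *Rmrp* and *Miat* turned positive, those of *Rn7sk* and *Rpph1* were -0.04 and -0.07, and that of *Malat1* was 0.32.

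**Figure D2:**
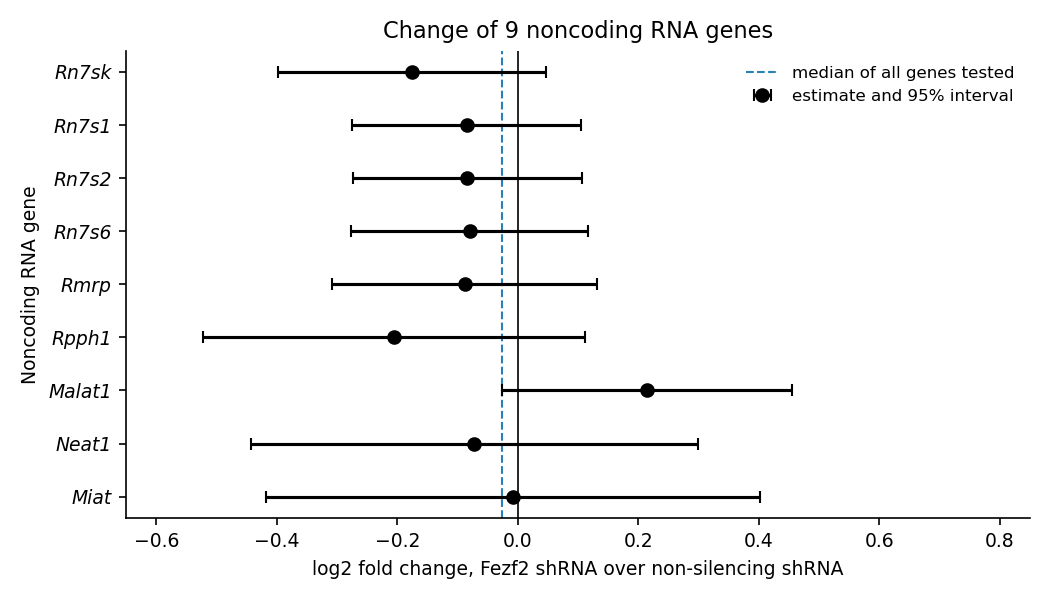
Log2 fold change (*Fezf2 shRNA* over *non-silencing shRNA*) of the 9 genes with its 95% interval from the edgeR fit. Each interval includes 0, the estimates run from -0.21 for *Rpph1* to 0.21 for *Malat1*, and the dashed line marks the median of all genes tested, -0.03.

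*Rn7sk* had 668638, 635884, 801258 and 603050 normalized counts in *non-silencing shRNA* replicates 1 to 4, and 599885, 628903, 542063 and 627581 in *Fezf2 shRNA* replicates 1 to 4. *Non-silencing shRNA* replicate 3 was the highest library and *Fezf2 shRNA* replicate 3 the lowest, and the groups overlapped. The mean was 677207 ± 86927 against 599608 ± 40629 (SD, n = 4 each). In the fit over all genes *Rn7sk* was at -0.18 on the log2 scale (standard error 0.101, 95% interval -0.40 to 0.05, edgeR adjusted p = 0.342), and the exact permutation test gave p = 0.114. Without *non-silencing shRNA* replicate 3 the log2 fold change was -0.08.

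As a share of gene counts, 7SK took 1.17%, 1.11%, 1.44% and 1.13% of the *non-silencing shRNA* libraries and 1.04%, 1.11%, 0.97% and 1.1% of the *Fezf2 shRNA* libraries. All 4 *Fezf2 shRNA* shares were below the lowest *non-silencing shRNA* share, though the highest of them, 1.1077%, stood beside 1.1113%. This gave the smallest p the design allows (exact permutation test, unadjusted p = 0.0286, 1 of 9 shares compared), and 11.8% of all genes tested had shares that did not overlap between the groups. The separation was lost when mitochondrial genes were left out of the total (p = 0.0857), and without *non-silencing shRNA* replicate 3 the exact p was 0.114.

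The copy *Gm26315* lies inside the interval of *Celf2* (chr2:6539694-7396000, minus strand), a gene for a neuronal RNA-binding protein that controls splicing, and on the same strand. *Celf2*, and with it *Zfp949*, were singled out after their values were seen. Because introns were counted with exons, the reads on the 7SK copy also counted for *Celf2*. They made up 82.8%, 79%, 85.3% and 81.9% of its counts in *non-silencing shRNA* replicates 1 to 4, and 71.8%, 75.4%, 71.5% and 72.4% in *Fezf2 shRNA* replicates 1 to 4. The groups did not overlap (exact permutation test, p = 0.0286, the smallest the design allows).

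Counted whole, *Celf2* had 331944 ± 57035 normalized counts in *non-silencing shRNA* and 323630 ± 13991 in *Fezf2 shRNA* libraries (SD, n = 4 each), which is -0.04 on the log2 scale (standard error 0.112, edgeR adjusted p = 0.877). With the reads of *Gm26315* taken out, it had 55673, 63286, 60867 and 51947 in *non-silencing shRNA* libraries and 90868, 83375, 87024 and 90297 in *Fezf2 shRNA* libraries. Every *Fezf2 shRNA* library then lay above every *non-silencing shRNA* library, where 11.8% of all genes tested had groups that did not overlap. This separation and that of the percents above come from the same counts. The fitted change of *Celf2* without the copy was 0.60 on the log2 scale (standard error 0.0799, edgeR adjusted p = 0.0151). *Celf2* spans 856307 bases, and with an offset for gene length the log2 fold change was 0.24 (adjusted p = 0.224), which ended the call. The call was also lost without *non-silencing shRNA* replicate 1 (adjusted p = 0.0909) and without *Fezf2 shRNA* replicate 1 (adjusted p = 0.0503).

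**Figure D3:**
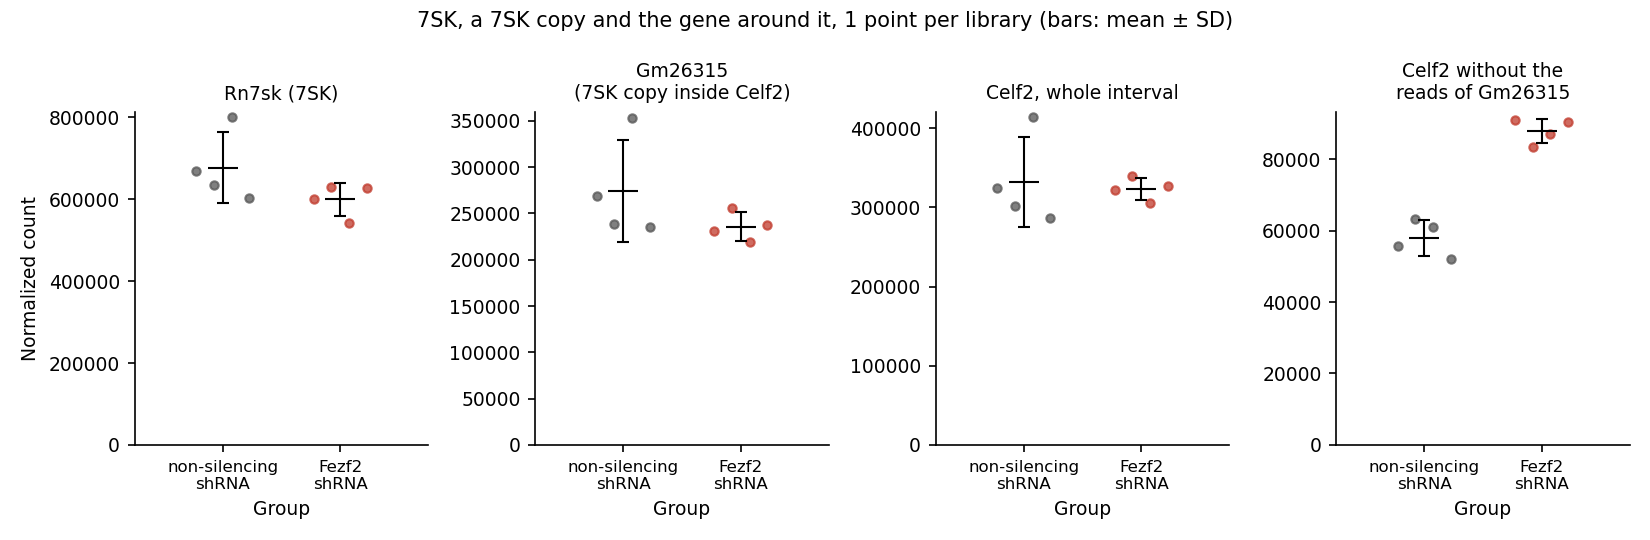
Normalized counts of *Rn7sk*, of its copy *Gm26315*, of the whole *Celf2* interval around that copy, and of *Celf2* with the reads of the copy taken out, with 1 point per library and the mean and SD of each group of 4. The high *non-silencing shRNA* replicate 3 appears in the first 3 panels, and the groups are apart only in the last, at 51947 to 63286 against 83375 to 90868.

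For the copies of 7SK, reads inside the bases they share with *Rn7sk* cannot be told apart from its own. *Gm24447* and *Gm26315* each had a log2 fold change of -0.22 (adjusted p = 0.347 and 0.351), and *Gm26035*, a shorter copy on the X chromosome, had -0.30 (edgeR, adjusted p = 0.336). A like overlap touched 7SL. *Gm26461*, a copy of the first 201 bases of *Rn7s1* at 96.5% identity, held 91.7% to 95.6% of the counts of the zinc finger gene *Zfp949*, in whose interval it lies. The log2 fold change of *Zfp949* was -0.19 with these reads and 0.01 without them, and neither passed the test (edgeR, adjusted p = 0.461 and 0.976).

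The 7SL genes had coefficients of variation of 5.86% to 8.72% within a group. *Rn7s1* had 2213676, 2176645, 2217790 and 1953862 normalized counts in *non-silencing shRNA* replicates 1 to 4 and 1840836, 2072101, 1951096 and 2210357 in *Fezf2 shRNA* replicates 1 to 4. *Fezf2 shRNA* replicate 1 was the lowest library, but *Fezf2 shRNA* replicate 4 was among the 3 highest, and the groups overlapped. The log2 fold change was -0.08 (standard error 0.0862, 95% interval -0.27 to 0.11, edgeR adjusted p = 0.607). *Rn7s2* and *Rn7s6* had the same log2 fold change of -0.08, as had the 3 genes summed to 1 feature (adjusted p = 0.64). The coefficient of variation of *Rn7s1* was 5.88% in *non-silencing shRNA* and 7.87% in *Fezf2 shRNA* libraries, beside a median of 8.26% over all genes tested in *non-silencing shRNA* libraries.

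The RNase RNAs had a coefficient of variation of 20.9% (*Rpph1*) and 6.13% (*Rmrp*) in *non-silencing shRNA* libraries, and of 13.7% each in *Fezf2 shRNA* libraries. *Rpph1* (chr14:50807449-50807767, minus strand) had 31880, 29367, 44275 and 29768 normalized counts in *non-silencing shRNA* replicates 1 to 4 and 30359, 31355, 23411 and 32213 in *Fezf2 shRNA* replicates 1 to 4. *Non-silencing shRNA* replicate 3 stood far above the other 7 libraries and was also the highest for 7SK. *Rpph1* had a fitted log2 fold change of -0.21 (standard error 0.144, 95% interval -0.52 to 0.11, edgeR adjusted p = 0.439) and -0.04 without that library.

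*Rmrp* (chr4:43492788-43493058, minus strand) had 22820, 20698, 20609 and 19811 normalized counts in *non-silencing shRNA* replicates 1 to 4 and 20147, 16072, 20116 and 22628 in *Fezf2 shRNA* replicates 1 to 4. Here *Fezf2 shRNA* replicate 2 was the library apart, on the low side, and *non-silencing shRNA* replicate 3 was near the middle. For *Rmrp* the fitted log2 fold change was -0.09 (standard error 0.0999, 95% interval -0.31 to 0.13, edgeR adjusted p = 0.65), and it was -0.0011 without *Fezf2 shRNA* replicate 2 and -0.16 without *Fezf2 shRNA* replicate 4. Over the 8 libraries, the log2 normalized counts of *Rn7sk* and *Rpph1* had a Pearson's r of 0.96, and 0.877 over the 7 without *non-silencing shRNA* replicate 3. Those of *Rmrp* had an r of 0.162 with *Rn7sk* and 0.098 with *Rpph1* over the 8. These are descriptions of libraries that share one normalization, and no test was made of them.

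*Malat1* (chr19:5795690-5802672, minus strand) had 195735, 245276, 211014 and 257967 normalized counts in *non-silencing shRNA* replicates 1 to 4 and 238607, 246684, 270320 and 300442 in *Fezf2 shRNA* replicates 1 to 4. The 2 highest libraries were of *Fezf2 shRNA* and the 2 lowest of *non-silencing shRNA*, with the others mixed. *Malat1* was at 0.21 on the log2 scale (standard error 0.109, 95% interval -0.03 to 0.46, edgeR adjusted p = 0.295), and the exact permutation test gave p = 0.143. With the gene length offset it was at 0.32 (edgeR, unadjusted p = 0.0138, adjusted p = 0.325), so that it did not pass the test there either.

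The annotated transcripts of *Malat1* divide its interval into a 3′ part of 1774 bases, a 5′ part of 756 bases and 4453 bases between and around them, taken as a difference of counts. The 3′ part had 52101 ± 5490 normalized counts per kb in *non-silencing shRNA* and 62743 ± 7015 in *Fezf2 shRNA* libraries (SD, n = 4 each). The 5′ part had 26484 ± 5776 and 26889 ± 2141, and the rest 25836 ± 3690 and 29728 ± 3156. In each library the 3′ part thus had more reads per base than the 5′ part, at a ratio of 1.67 to 2.46. Between the groups the ratio was 2.02 ± 0.34 and 2.33 ± 0.0912 (SD, n = 4 each), and the groups overlapped (exact permutation test, p = 0.171). In a fit over all 20090 transcripts that passed the filter, of which 5.62% were called, the transcript of the 3′ part was at 0.23 on the log2 scale (standard error 0.0989, adjusted p = 0.158) and that of the 5′ part -0.01 (standard error 0.137, adjusted p = 0.958). No transcript of *Malat1* or *Miat* was called in it (edgeR quasi-likelihood test), and those of *Neat1* did not reach its filter.

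*Neat1* (chr19:5824708-5845478, minus strand) had the fewest counts of the 9, 475 to 836 per library. It had 582.3, 490.3, 781.9 and 813.1 normalized counts in *non-silencing shRNA* replicates 1 to 4 and 560.1, 585.9, 780.3 and 611.9 in *Fezf2 shRNA* replicates 1 to 4. The highest and the lowest library were both of *non-silencing shRNA*. *Neat1* was at -0.07 on the log2 scale (standard error 0.168, 95% interval -0.44 to 0.30, edgeR adjusted p = 0.836), and it turned to 0.02 without *non-silencing shRNA* replicate 3 and to 0.04 without replicate 4.

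The short *Neat1* transcript covers the first 3170 bases of the gene and shares them with the long one, which alone covers the other 17601 bases and which paraspeckles need. The 5′ part had 117 ± 32.2 normalized counts per kb in *non-silencing shRNA* and 102 ± 12.6 in *Fezf2 shRNA* libraries, and the rest had 16.8 ± 3.67 and 17.8 ± 4.5 (SD, n = 4 each). Per base, the 5′ part was covered 4.55 to 8.43 times as deeply as the rest in single libraries. The means were 6.99 ± 1.26 and 5.93 ± 1.45, and the groups overlapped (exact permutation test, p = 0.314).

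*Miat* (chr5:112213230-112228948, minus strand) had 5849, 4317, 5975 and 8689 normalized counts in *non-silencing shRNA* replicates 1 to 4 and 5633, 5115, 6366 and 7584 in *Fezf2 shRNA* replicates 1 to 4. Replicate 4 was the highest of each group and replicate 2 the lowest. The group means were nearly equal, at 6208 ± 1818 and 6174 ± 1070 (SD, n = 4 each), or -0.01 on the log2 scale (standard error 0.186, 95% interval -0.42 to 0.40, edgeR adjusted p = 0.988). Its coefficient of variation in *non-silencing shRNA* libraries, 29.3%, was the highest of the 9 genes in either group. A change of the size fitted for *Malat1* lies well within the interval of this fit. With a replicate block, which was not taken as the design, the standard error of *Miat* was smaller, 0.076, at a log2 fold change of 0.021. Outside its 5′ part, mostly on the 3′ side, reads of *Miat* were denser, with 615 ± 195 and 610 ± 112 normalized counts per kb, than in that part of 7276 bases, with 140 ± 24.9 and 141 ± 17.3 (SD, n = 4 each).

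**Figure D4:**
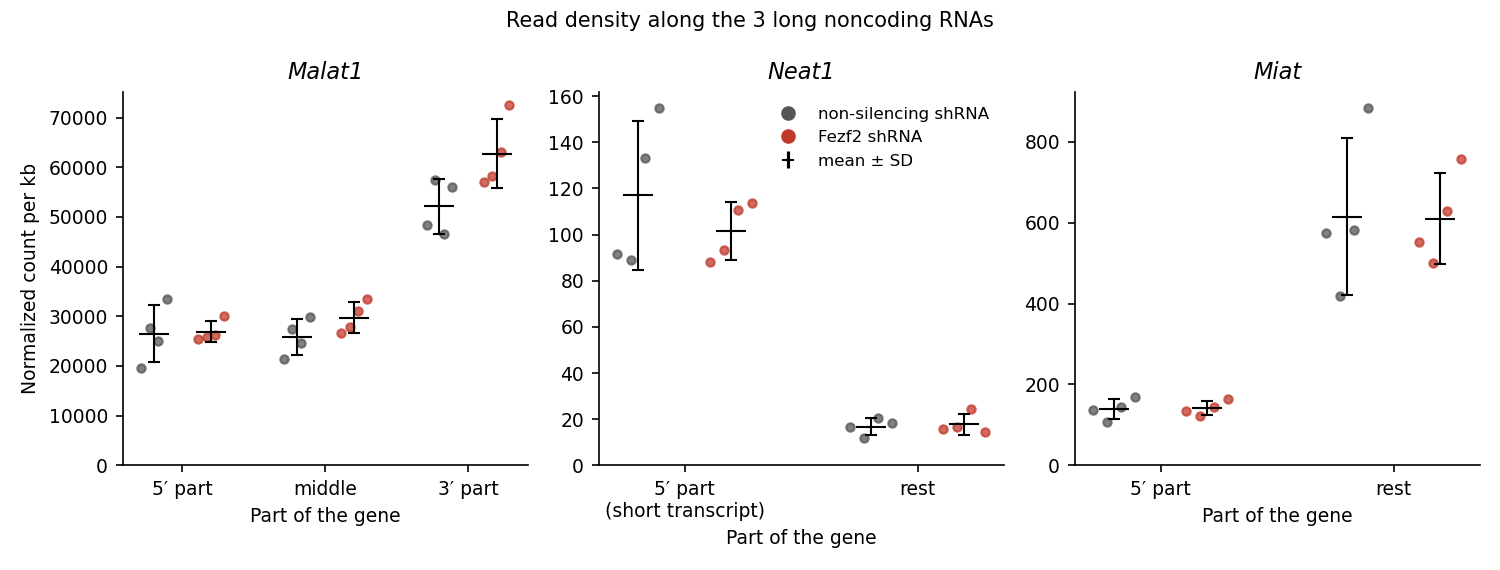
Normalized counts per kb in parts of *Malat1*, *Neat1* and *Miat*, with 1 point per library and the mean and SD of each group of 4. Coverage is highest in the 3′ part of *Malat1* (52101 and 62743 per kb), in the 5′ part of *Neat1* shared with its short transcript (117 and 102) and outside the 5′ part of *Miat* (615 and 610), and the groups overlap in every part.

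The genes with the pattern over the 8 libraries most like each of 4 members were listed by Pearson's r of log2 normalized counts, the top 3 of all genes tested. For *Rn7sk* they were the ribosomal protein gene *Rpl14* (r = 0.984), the chromatin remodeller gene *Smarca5* (0.976) and *Gm26315* (0.962), which shares its reads. For *Malat1* they were the deubiquitinase gene *Usp7* (0.981), *Washc4* (0.963) and *Hnrnpd* (0.96), and for *Neat1* the growth factor gene *Pdgfa* (0.949), *Klhl20* (0.927) and *Senp6* (0.926). For *Miat* they were *Fbxo38* (0.987), *Gm26953* (0.969) and *Slc25a27* (0.968). *Gm26953* lies antisense inside *Miat*, and since the strand setting of the counting is not given, their reads may be shared. The top of 9959 correlations over 8 points is high in any case, so these are names and no more.

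Partner proteins, other noncoding RNAs and the mitochondrial ribosomal RNAs were described by lists of genes. Over 8 lists, 53 of 76 genes were tested and 0 passed the test, and 10 had an unadjusted p under 0.05, or 18.9%, near the 19.6% of all genes. The groups did not overlap for 5 of the 53, beside 11.8% of all genes. DESeq2 with its prior, which called 7.37% of all genes, called 2 of the 53, among them *mt-Rnr1* (adjusted p = 0.0439). Of the 7SK particle and P-TEFb, 6 of 8 genes were tested, with a median log2 fold change of 0.02.

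Of the signal recognition particle and its receptor, all 10 genes were tested, all 10 had a negative log2 fold change, and the median was -0.10. Tested genes outside the members had a median of -0.12 with an interval under 10000 bases, and of -0.07 from 10000 to 30000 bases. With the gene length offset the median of the 10 was -0.06. The smallest p was that of *Srp9*, one of the proteins that bind the Alu part of 7SL RNA, with 991 ± 253 against 687 ± 149 normalized counts (SD, n = 4 each, log2 fold change -0.53, edgeR adjusted p = 0.166). *Srp54b*, for a copy of the protein that binds signal sequences, had the most counts (log2 fold change -0.10, adjusted p = 0.733), and *Srp54a*, *Srp54b* and *Srp54c* are near-identical genes whose reads may be shared. Of the proteins of RNase P and RNase MRP, 2 of 11 genes reached the filter, *Pop5*, which had both the smallest p and the most counts of its list, and *Rpp14*, at -0.04 and -0.03 (edgeR, adjusted p = 0.818 and 0.845).

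All 12 genes of paraspeckle proteins were tested, with a median of -0.05. *Hnrnpk*, the gene with the most counts, had -0.07 (edgeR, adjusted p = 0.567). The 9 genes of nuclear speckle proteins had a median of -0.12. Of these *Srsf1*, for a splicing factor of the SR family, had the smallest p (log2 fold change -0.25, edgeR adjusted p = 0.124), and *Srrm2*, for a scaffold of the speckles, had the most counts (0.14, adjusted p = 0.382). Of the 3 genes for proteins reported to bind *Miat* RNA, *Qk* had the smallest p and the most counts (log2 fold change -0.05, edgeR adjusted p = 0.726).

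Among 21 other noncoding RNA genes, 16 were in the table and 9 were tested, with a median of 0.04. *Dleu2* had the smallest p (log2 fold change 0.31, edgeR adjusted p = 0.146) and *Meg3* the most counts (0.08, adjusted p = 0.805). Of the mitochondrial ribosomal RNAs, which shared the top of the libraries with 7SL, *mt-Rnr1* had a log2 fold change of 0.30 (edgeR adjusted p = 0.18) and *mt-Rnr2* 0.03 (adjusted p = 0.855).

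Markers of cell types were read beside these values. The 5 oligodendrocyte markers, among them *Mbp* and *Mog*, all had negative log2 fold changes, with a median of -0.55, and their summed normalized counts ran from 56563 to 104366 in *non-silencing shRNA* and from 42399 to 70284 in *Fezf2 shRNA* libraries. An unadjusted p under 0.05 was found for 3 of the 5, beside 19.6% of all genes. None of the 5 passed the test, the smallest adjusted p being 0.128 (edgeR). The neuronal markers summed to 185098 to 206824 and 192032 to 201399, the astrocyte markers to 26896 to 31596 and 23303 to 29616, and those of microglia to 7089 to 9377 and 6801 to 9529. Oligodendrocyte precursor markers ran from 3279 to 3945 and from 3165 to 3393, endothelial markers from 1452 to 2257 and from 1375 to 1638, meningeal markers from 298 to 1027 and from 221 to 1237, and blood markers from 1107 to 3588 and from 1867 to 4601. Of the 27 markers tested, 0 passed the test, beside 2.09% of all genes. The groups did not overlap for 3 of the 27, beside 11.8% of all genes, and these 3 were picked out after their values were seen. *Olig1*, a transcription factor gene of the oligodendrocyte lineage, was lower in all *Fezf2 shRNA* libraries (log2 fold change -0.34, edgeR adjusted p = 0.0527), the smallest p of the markers. The neuronal genes *Rbfox3* (0.28, adjusted p = 0.0996) and *Syt1* (0.19, adjusted p = 0.207) were higher in all *Fezf2 shRNA* libraries (edgeR). The other neuronal markers went the other way, with -0.06 for *Snap25*, -0.07 for *Slc17a7* and -0.10 for *Gad1*, and their groups overlapped. *Rbfox3* and *Syt1* have long intervals, of 418418 and 513331 bases. Those of *Snap25*, *Slc17a7* and *Gad1* span 68976, 12194 and 39973 bases, and that of *Olig1* 2162. The part of interval length in these marker values was not tested. The part of these cell types in the values of the noncoding RNAs was not tested.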

How the data were processed

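The 8 libraries (4 *non-silencing shRNA* and 4 *Fezf2 shRNA*) were sequenced paired-end from total RNA. GEO's design text names 4 animals per treatment, so a library was taken as 1 animal. The deposited table holds raw counts per Ensembl transcript. Per the submitters' processing notes and the methods of the study, the authors trimmed adapters with fastq-mcf, mapped reads to mm10 (GRCm38) with TopHat2 2.1.1 and counted them with bedtools 2.26.0 multiCov over whole transcript intervals, introns included. The methods name a stranded kit, but give no strand setting for the counting. A second deposited table holds the authors' own DESeq2 comparison per gene (base means, fold changes, test statistics and p-values) and was not used. Every column of the count table was mapped to a sample.

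Transcripts were placed with GENCODE M21 (91320 of 94647 found, the rest holding 1.82% of the counts), and 1 transcript per gene was kept, which gave 54684016 to 58003814 counts per library. A gene entered the test when at least 4 libraries had it above 8 CPM, and the test was that of edgeR 4.0.16 (TMM, quasi-likelihood test, Benjamini-Hochberg adjustment over all genes tested) in R 4.3.3, with no covariate. The fit was tested on simulated data. Exact permutation tests were two-sided over the 8 libraries. Copies were searched with blastn 2.17.0 against all annotated transcripts. Parts of the long RNAs are nested intervals and the differences left by them. A read across a border counts for the nested part and not for the rest.

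The members and lists were chosen with earlier results of these data known. Named genes are the 9 members, *Fezf2*, the gene of smallest p and that of most counts in each list, copies of the members, and the 3 genes with the highest correlation to *Rn7sk*, *Malat1*, *Neat1* and *Miat*. Some genes and sequences that this rule would name are not reported here. Alternatives were the median of ratios of DESeq2 1.42.0, library totals, TMM leaving out the 10 most counted genes, filters at 1 CPM or none, the DESeq2 test (with or without prior), a replicate block, a loess offset (span 0.3) on gene length, both together, the widest transcript, other totals for the shares, 7SL copies summed, and each library left out in turn.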

Additional observations from a re-analysis of the deposited data

Results flagged for a closer look

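In 38 groups of 4 libraries (members, 7SK copies, *Celf2* and parts of the long RNAs), 3 had 1 library whose gap to the next, divided by the range of its group, was above Dixon's 95% critical value for 4 values, where chance alone gives about 1 in 20. *Non-silencing shRNA* replicate 4 was low for *Rn7s1*, with 1953862 normalized counts beside 2176645 to 2217790 in the other 3 (ratio 0.844), and for *Rn7s2*, which has the same sequence, with 1945441 beside 2165910 to 2207248 (ratio 0.842). *Non-silencing shRNA* replicate 3 was high for *Rpph1*, with 44275 beside 29367 to 31880 (ratio 0.831). The same library was the highest for *Rn7sk* without passing this limit.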

How the results depend on the processing

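Over 172 values from alternatives, no member passed the test (smallest adjusted p 0.189, DESeq2), and 150 kept their direction. The gene length offset turned *Rn7s1* to 0.047, *Rn7s2* to 0.047, *Rn7s6* to 0.052, *Rmrp* to 0.042 and *Miat* to 0.074, and moved *Rn7sk* to -0.043, *Rpph1* to -0.068, *Neat1* to -0.012 and *Malat1* to 0.32. With the replicate block and gene length offset together these were 0.041, 0.042, 0.046, 0.033 and 0.095, and *Neat1* was 0.0016. *Miat*, near 0, was 0.00028 with the median of ratios, 0.0021 with TMM without the top 10 genes, 0.0023 with no filter, 0.00023 and 0.00041 with DESeq2 with and without its prior, and 0.021 with the replicate block. Leaving out single libraries gave -0.19 to 0.039 for *Neat1*, -0.15 to 0.20 for *Miat*, -0.22 to -0.08 for *Rn7sk*, -0.27 to -0.04 for *Rpph1*, -0.16 to -0.0011 for *Rmrp*, -0.13 to -0.042 for *Rn7s1*, -0.13 to -0.042 for *Rn7s2*, -0.13 to -0.029 for *Rn7s6* and 0.15 to 0.28 for *Malat1*. The unadjusted p of *Malat1* was under 0.05 with no filter (0.0405), DESeq2 (0.0302), the replicate block (0.0334), the length offset (0.0138), both together (0.00703) and without *non-silencing shRNA* replicate 4 (0.0323), and that of *Rn7sk* with library totals (0.047).

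Of 99 values for shares (log2 ratio of group means), 4 changed direction. The share of *Rn7sk* was -0.20, and -0.19 (exact permutation p = 0.0857) without mitochondrial genes in the total. Without single libraries it was -0.24 to -0.11, that of *Rn7s1* -0.15 to -0.063, *Rn7s2* -0.15 to -0.063, *Rmrp* -0.18 to -0.028, *Neat1* -0.24 to 0.033 and *Miat* -0.19 to 0.19. The exact p of *Rn7sk* rose to between 0.0857 and 0.143 without *non-silencing shRNA* replicate 3 or any single *Fezf2 shRNA* library, while the remaining shares still did not overlap. Without *Fezf2 shRNA* replicate 4 the exact p of *Rn7s1*, *Rn7s2* and *Rmrp* was 0.0286. In the transcript fit, single libraries left out gave -0.11 to 0.14 for the 5′ part of *Malat1*, -0.14 to 0.10 for that of *Miat*, and -0.19 to 0.18 for each of the wider *Miat* transcripts. *Celf2* without the reads of *Gm26315* had 0.24 with the gene length offset and 0.55 to 0.65 without single libraries.

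The count over all genes, 208, depended far more on the settings. It was 84 at 1 CPM, 103 with no filter, 734 and 752 with DESeq2 with and without its prior, 2 with the gene length offset, 2 with block and offset together, and 0 to 368 without single libraries. The 0 came without *non-silencing shRNA* replicate 1 (edgeR, 1568 genes at an unadjusted p under 0.05), and the count was 4 without *non-silencing shRNA* replicate 4, 9 without *Fezf2 shRNA* replicate 3, 13 without *Fezf2 shRNA* replicate 1 and 17 without *Fezf2 shRNA* replicate 4. Of the list genes, 2 were called by DESeq2 with its prior and 2 without it, against 0. The replicate block gave 90 genes and changed no other call. The numbers were not taken to pair the samples. Deviations correlated at 0.3, 0.0881, -0.133 and 0.168 for numbers 1 to 4, and 4 of 8 libraries correlated best with their own number. These values do not settle whether the numbers mark pairs. The causes were not tested. Depth was lowest for *Neat1*, with 475 to 836 counts, and its spread between libraries was still wider than counting error.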
